A study of Homo sapiens with 9 samples.

Results

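The genes examined here encode 9 transcription factors of the forkhead family, FOXO1, FOXO3, FOXO4, FOXD1, FOXC1, FOXK1, FOXK2, FOXP1 and FOXN3. They were taken by gene name from a table of 58735 genes, and each name matched 1 gene. FOXD1 was chosen by its measured level, which was lower with both inhibitors of the study, so all its differences between conditions are a description with no test. The other 8 genes were taken by name, but with earlier results of these data known, so their p-values are not independent evidence. RNA was sequenced from MIA PaCa-2 cells, an established human pancreatic cancer line labelled as wild type (WT) in genotype, with 3 libraries per condition. The cells were kept for 24 h with 1 μM SCH772984, an inhibitor of the ERK kinases, with 1 μM compound 1, an inhibitor of TBK1 and IKKε, or with 0.1% dimethyl sulfoxide (DMSO) as the vehicle. The study compared the inhibitors to ask which genes ERK and TBK1–IKKε regulate in common. The labels do not say whether the replicates were separate cultures, so p-values measure the spread between these libraries, which may be technical.

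Forkhead proteins bind DNA through a winged helix fold whose recognition helix lies in the major groove. The FOXO proteins are held in check by kinases. AKT phosphorylates them at arginine-rich sites, 14-3-3 proteins then keep them in the cytoplasm, and ERK and the IKK family also phosphorylate FOXO3 and mark it for degradation. Nuclear FOXO proteins switch on genes of cell cycle arrest, cell death, autophagy and stress defense. FOXD1 and FOXC1 act in development, FOXD1 in the kidney stroma and FOXC1 in the eye and mesenchyme. FOXK1 and FOXK2 recruit the SIN3 and BAP1 complexes and bind dishevelled proteins, and FOXP1 and FOXN3 are mostly repressors. These data measure transcripts and not the phosphorylation, location or amount of the proteins.

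The 3 FOXO genes share a coding feature that no other member has to the same extent. The AKT recognition pattern was searched in the longest reading frame of each gene in GENCODE release 29 transcripts, as an arginine codon, any codon, an arginine codon, any pair of codons and a serine or threonine codon. It was found 3 times in FOXO1, in FOXO3 and in FOXO4, 1 time in FOXD1, FOXK1 and FOXN3, and 0 times in FOXC1, FOXK2 and FOXP1. The FOXO matches are shown because these are the sites through which AKT is known to act. Capitals mark the codons of the arginines and of the serine or threonine.
FOXO1 site 1: CGGccgCGCtcgtgcACC
FOXO1 site 2: AGGagaAGAgctgcaTCC
FOXO1 site 3: CGCcctCGAactagcTCA
FOXO3 site 1: CGTccgCGAtcctgtACG
FOXO3 site 2: CGGcggCGGgctgtcTCC
FOXO3 site 3: CGTtcaCGCaccaatTCT
FOXO4 site 1: CGTcccCGCtcctgcACC
FOXO4 site 2: CGCcgcCGGgccgccTCC
FOXO4 site 3: CGTccaCGAagcagtTCA

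The stretch of 30 bases that codes for the recognition helix is shown for 7 of the genes because it is what forkhead genes have in common. Capitals mark the positions that differ between at least 2 of the 7, and 13 of the 30 bases were equal in all 7. FOXD1 and FOXC1 had the same 30 bases. FOXO3 shared 21 bases with FOXO1, FOXK2 shared 23 and FOXK1 shared 20, while FOXD1 shared 18 and FOXN3 shared 17. These are counts of bases and not of amino acids. The FOXO1 and FOXO3 stretches code for the same amino acids, and that of FOXK2 differs from them in its last codon.
FOXO1: aaTTCAAtTCgTcaTaaTCtGtcCCtACaC
FOXO3: aaCTCCAtCCgGcaCaaCCtGtcACtGCaT
FOXD1: aaCAGCAtCCgCcaCaaCCtCtcGCtCAaC
FOXC1: aaCAGCAtCCgCcaCaaCCtCtcGCtCAaC
FOXK1: aaTTCTAtCCgGcaCaaCCtCtcTTtGAaC
FOXK2: aaTTCAAtTCgCcaCaaTCtCtcTCtGAaT
FOXN3: aaCTCAGtGAgAcaCaaTTtAtcATtGAaT

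The 250 bases before the start of FOXO1, FOXO3, FOXO4 and FOXD1 are shown because these 4 genes had the largest changes in level with SCH772984 among the 8 that passed the filter on low counts. They are RefSeq promoters on GRCh38.p14, written in the direction of transcription, and capitals mark motif matches. The RefSeq starts lie 44 bases (FOXO1), 10 bases (FOXO3), 346 bases (FOXO4) and 250 bases (FOXD1) upstream of the gene starts in the annotation of the count table. The motifs searched on both strands were GTAAACA (forkhead), TGANTCA (AP-1), CGGAAG (ETS) and GGGCGG (GC box).
FOXO1, chr13:40666642-40666891, minus strand: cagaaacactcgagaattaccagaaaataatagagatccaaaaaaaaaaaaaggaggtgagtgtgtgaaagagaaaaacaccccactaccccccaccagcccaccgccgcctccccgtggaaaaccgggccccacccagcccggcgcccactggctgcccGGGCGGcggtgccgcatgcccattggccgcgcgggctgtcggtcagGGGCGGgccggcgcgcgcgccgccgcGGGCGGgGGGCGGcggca
FOXO3, chr6:108559575-108559824, plus strand: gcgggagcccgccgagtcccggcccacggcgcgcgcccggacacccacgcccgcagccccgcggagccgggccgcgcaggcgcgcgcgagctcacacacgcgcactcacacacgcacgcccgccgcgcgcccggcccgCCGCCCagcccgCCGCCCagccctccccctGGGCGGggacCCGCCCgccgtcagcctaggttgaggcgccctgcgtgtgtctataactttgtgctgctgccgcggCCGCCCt
FOXO4, chrX:71095601-71095850, plus strand: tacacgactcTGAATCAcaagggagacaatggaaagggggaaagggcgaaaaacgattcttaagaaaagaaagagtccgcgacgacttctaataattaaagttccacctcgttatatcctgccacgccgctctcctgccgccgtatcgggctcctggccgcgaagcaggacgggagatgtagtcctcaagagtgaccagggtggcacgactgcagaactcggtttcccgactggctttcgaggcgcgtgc
FOXD1, chr5:73448778-73449027, minus strand: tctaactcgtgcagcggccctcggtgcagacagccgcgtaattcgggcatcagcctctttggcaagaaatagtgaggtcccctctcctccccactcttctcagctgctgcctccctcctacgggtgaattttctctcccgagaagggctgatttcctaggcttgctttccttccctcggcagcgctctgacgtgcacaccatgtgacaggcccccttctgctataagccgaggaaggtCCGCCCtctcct
FOXO1 had 27 CpG dinucleotides in these bases, FOXO3 had 42, FOXO4 had 21 and FOXD1 had 13, against a median of 11 over 35116 RefSeq promoters. The GC box was found 4 times before FOXO1, 5 times before FOXO3, 1 time before FOXD1 and not before FOXO4, and 42.6% of all promoters held it in 250 bases. FOXO4 held an AP-1 match, as did 6.57% of all promoters. The ETS motif was in none of these 4 stretches, and 16.5% of all promoters held it. The forkhead motif was in none of these 4 stretches, but FOXO4 had a match that begins at base 24 counted from its start, and 3.42% of all windows of 300 bases held one. A match is a description of the letters and shows no binding. The 30 bases at chrX:71095863-71095892 on the plus strand are shown, with the match in capitals.
FOXO4 after the start: cccggcgagtgGTAAACAgagacgtcagga

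Library totals were 9464432 to 10286223 counts with DMSO, 9652741 to 9840769 with compound 1 and 11056977 to 13887859 with SCH772984. Levels are given as CPM, counts scaled by library total and TMM factor, which sets the bulk of genes equal between libraries, so a change shared by most RNA, or less RNA per cell, cannot be told apart from none. Compound 1 replicate 1 stood apart, with a chi-square per degree of freedom of 7.61 and 10.1 against the other 2 replicates, which gave 2.66 between themselves. Of 7 carcinoma markers KRT8, KRT18, KRT19 and VIM were abundant, while KRT7 had 0 to 5 counts, EPCAM was at 0 in every library, and CDH1 had 0 counts in each DMSO library and 4 to 5 in the SCH772984 libraries. With SCH772984 KRT18 fell 5.29-fold (edgeR adjusted p = 4.04e-32), KRT8 fell 3.24-fold (1.85e-27). VIM was called lower by 0.23 on the log2 scale (0.000899) and KRT19 was at 0.11 (0.149), but with scaling by library size alone VIM was not called (-0.058, 0.380) and KRT19 was called higher (0.28, 0.000238), and the part of this shift in the results below was not tested. Of 7 leukocyte, endothelial and fibroblast markers, 3 had any count with SCH772984, and their summed level was 0.110 to 0.438 CPM with DMSO and 2.36 to 3.49 CPM with SCH772984, mostly COL1A1, and the part of these cells in the results below was not tested. DUSP6, an ERK output gene, had 4.15 CPM with DMSO. It had 4.18 CPM in the compound 1 group and 0.028 CPM in the SCH772984 group.

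FOXO1, FOXO3 and FOXO4 all rose with SCH772984. FOXO4 rose most, 5.20-fold, FOXO1 rose 2.50-fold and FOXO3 rose 2.43-fold. With compound 1, none of the 3 passed the test. Per kilobase of exon, FOXO1 had the lowest level of the tested members in each condition, FOXO4 the next lowest, and FOXO3 the highest of the 3 FOXO genes.

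FOXO4 (ENSG00000184481), on chrX:71096197-71103535 of GRCh38, is the FOXO factor known from senescent cells. Its DMSO libraries had 1.74, 2.32 and 1.64 CPM, from 15 to 21 counts. The compound 1 libraries had 1.72, 1.78 and 2.81 CPM. The SCH772984 libraries had 10.7, 9.71 and 9.47 CPM, from 115 to 141 counts. All 3 SCH772984 libraries lay above every DMSO and compound 1 library, and the compound 1 libraries overlapped those with DMSO. The log2 fold change with SCH772984 was 2.38 ± 0.22 (SE; adjusted p = 5.34e-13, edgeR quasi-likelihood test with Benjamini-Hochberg adjustment over 13834 genes). With compound 1 it was 0.15, with a 95% confidence interval from -0.54 to 0.84 (adjusted p = 0.871). Without compound 1 replicate 3 that value was -0.12.

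FOXO3 (ENSG00000118689), on chr6:108559835-108684774, is the FOXO factor that ERK and the IKK family are known to phosphorylate. It had 12.6, 15.3 and 11.8 CPM with DMSO. The compound 1 libraries had 8.93, 10.4 and 10.9 CPM. The SCH772984 libraries had 36.4, 30.0 and 30.7 CPM. The 3 conditions did not overlap, with compound 1 lowest and SCH772984 highest. With SCH772984 the log2 fold change was 1.28 ± 0.12 (SE; edgeR adjusted p = 6.59e-13). With compound 1 it was -0.39, with a 95% confidence interval from -0.72 to -0.06, an unadjusted p of 0.0243 and an adjusted p of 0.247 in edgeR. FOXO3B is a pseudogene on chromosome 17 that shares 64.2% of its 50-base words with FOXO3. It averaged 5.66 CPM in DMSO, 5.29 in SCH772984 and 4.96 in compound 1 libraries. Its log2 fold change with SCH772984 was -0.11 (edgeR adjusted p = 0.644), or 0.066 with scaling by library size alone, and the split of reads between the copies is uncertain.

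FOXO1 (ENSG00000150907), on chr13:40469953-40666597, is the FOXO factor of insulin responses in liver and fat. It had 16, 13 and 10 counts in the DMSO libraries. There were 12, 13 and 19 counts with compound 1. There were 43, 34 and 60 counts with SCH772984. In CPM these were 1.09 to 1.64 with DMSO, 1.29 to 1.97 with compound 1 and 2.87 to 4.03 with SCH772984, so only the SCH772984 libraries stood clear of DMSO. The log2 fold change with SCH772984 was 1.32 ± 0.32 (SE; edgeR adjusted p = 0.000263), with a 95% confidence interval from 0.68 to 1.95. With compound 1 it was 0.15, with an interval from -0.61 to 0.90 (adjusted p = 0.886), and -0.072 without compound 1 replicate 3. A change within that interval was not detectable at these counts. FOXO1 shares 269 exon bases with LINC00598, which had 5 counts in all 9 libraries.

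**Figure D1:**
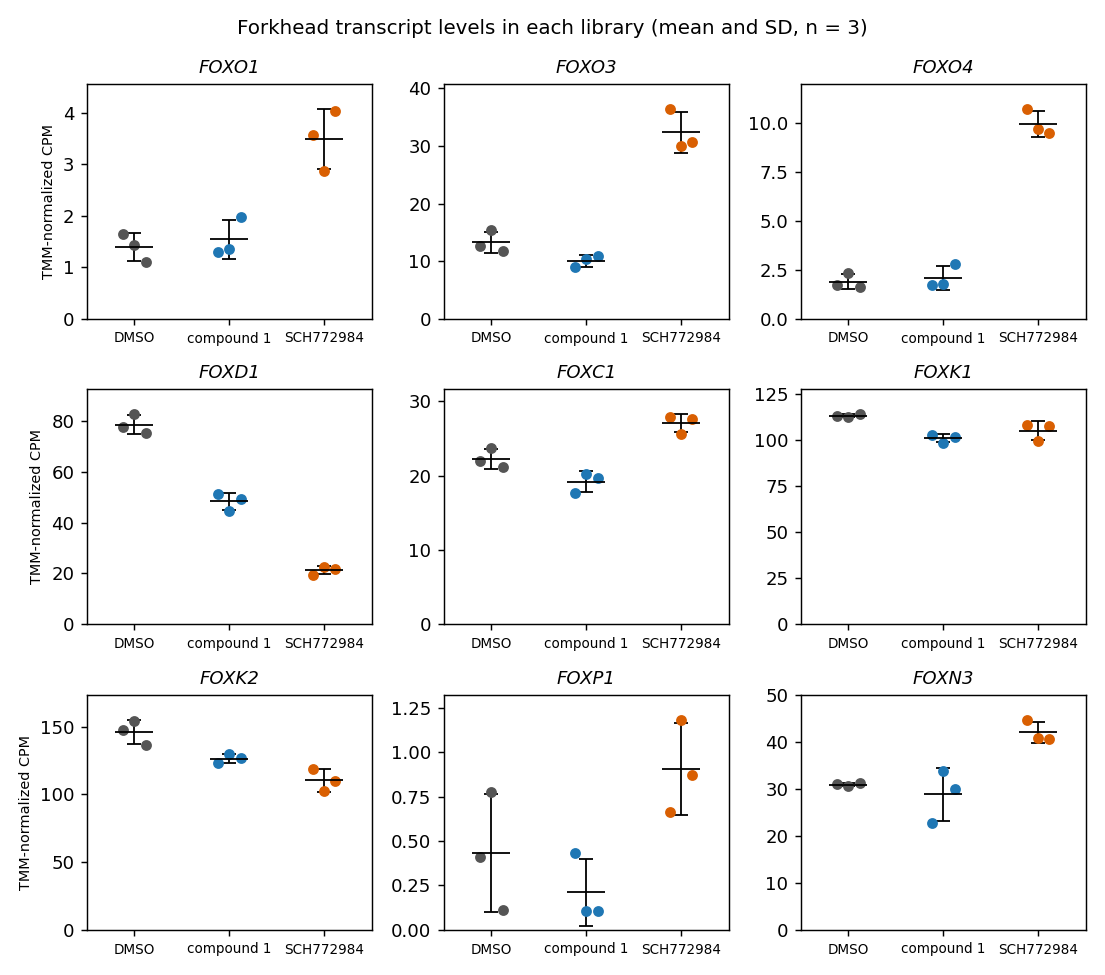
TMM-normalized CPM (vertical axes, each from 0) of the 9 forkhead genes in each library with DMSO, compound 1 and SCH772984. Points are libraries, and bars give the mean and SD of 3 libraries. FOXO1, FOXO3 and FOXO4 have all SCH772984 libraries above DMSO, and FOXD1 has both inhibitors below DMSO.

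FOXD1 (ENSG00000251493), on chr5:73444827-73448527, had the highest level per kilobase of the 9 genes in DMSO. Its DMSO libraries had 77.6, 82.5 and 75.2 CPM. The compound 1 libraries had 51.2, 44.6 and 49.2 CPM. The SCH772984 libraries had 19.5, 22.6 and 21.5 CPM. The 3 conditions formed separate ranges in the order DMSO, compound 1, SCH772984. FOXD1 was 1.62-fold lower with compound 1 (log2 fold change -0.70 ± 0.09, SE) and 3.70-fold lower with SCH772984 (-1.89 ± 0.09). Both values rest on the same 3 DMSO libraries, and no test is given because the gene was taken for this pattern. Leaving out each library in turn, other filters, scalings and tools gave -0.74 to -0.65 for compound 1 and -1.94 to -1.71 for SCH772984. An antisense gene, FOXD1-AS1, overlaps FOXD1 and had 0 counts. The strand setting of the counting is not given in the sources used here, so reads from FOXD1 and that gene cannot be told apart.

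FOXD1 was 2.27-fold lower with SCH772984 than with compound 1, a log2 fold change of -1.18 ± 0.11 (SE), which ran from -1.25 to -1.05 over the 13 alternatives. This value is also a description with no test, because it rests on the treated libraries in which FOXD1 was seen to be low.

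FOXK1 and FOXK2, which bring corepressors to DNA, drew the most counts of the 9 genes. FOXK2 fell with SCH772984, and FOXK1 did not pass the test. FOXK2 (ENSG00000141568), on chr17:82519713-82644662, had 147, 154 and 137 CPM with DMSO. It had 123, 130 and 127 CPM with compound 1. It had 119, 102 and 110 CPM with SCH772984. All treated libraries lay below all DMSO libraries, and the SCH772984 libraries lay below those with compound 1. FOXK2 shares 53 exon bases, 0.530% of its exons, with WDR45B on the other strand. FOXK2 fell with SCH772984 by 0.41 ± 0.07 on the log2 scale (SE; edgeR adjusted p = 1.21e-06) and by 0.24 with scaling by library size alone (adjusted p = 0.00215), and the value with compound 1 was -0.21 (adjusted p = 0.192). Between the inhibitors the difference was -0.20 (adjusted p = 0.0587), which passed without compound 1 replicate 1 (-0.22, adjusted p = 0.0193) and without SCH772984 replicate 1 (-0.26, adjusted p = 0.0353).

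FOXK1 (ENSG00000164916), on chr7:4682309-4771443, averaged 113 ± 0.730 CPM (SD, n = 3) in the DMSO libraries. It averaged 101 ± 2.28 CPM in the compound 1 libraries and 105 ± 5.04 CPM in the SCH772984 libraries. Each treated library lay below every DMSO library. No comparison passed the test with TMM scaling, and the interval with SCH772984 was -0.25 to 0.03 on the log2 scale (edgeR adjusted p = 0.137). Scaling by library size alone turned that value from -0.11 to 0.063. With compound 1 the value was -0.16 (adjusted p = 0.300), and between the inhibitors it was 0.059, with an interval from -0.12 to 0.24 (adjusted p = 0.562). Scaling by library size alone gave 0.20 between the inhibitors, which passed (adjusted p = 0.0478).

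FOXN3, a repressor tied to the cell cycle checkpoint, and FOXC1 were modestly higher with SCH772984. FOXN3 (ENSG00000053254), on chr14:89124871-89619149, had 31.1, 30.6 and 31.2 CPM with DMSO. It had 22.8, 33.8 and 29.9 CPM with compound 1. It had 44.7, 40.8 and 40.6 CPM with SCH772984, above all other libraries. The log2 fold change with SCH772984 was 0.43 ± 0.09 (SE; edgeR adjusted p = 3.87e-05). The compound 1 libraries lay on both sides of DMSO, at -0.10 (adjusted p = 0.781) with all 3 and 0.048 without replicate 1, the library that stood apart.

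FOXC1 (ENSG00000054598), on chr6:1609972-1613897, had 22.0, 23.7 and 21.1 CPM with DMSO. It had 17.7, 20.3 and 19.7 CPM with compound 1. It had 27.9, 25.7 and 27.7 CPM with SCH772984. The 3 conditions did not overlap, with compound 1 lowest. The rise with SCH772984 was 0.27 ± 0.11 on the log2 scale (SE; edgeR adjusted p = 0.0204). The call was lost without DMSO replicate 1 (adjusted p = 0.0811), DMSO replicate 3 (0.111) or SCH772984 replicate 1 (0.0622), and with no filter on low counts (0.0855), and with scaling by library size alone the rise was 0.45. With compound 1 the value was -0.21 (adjusted p = 0.413).

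FOXP1 (ENSG00000114861), on chr3:70952817-71583993, is a repressor best known in lymphocytes and lung, and it was nearly silent here. It had 4, 7 and 1 counts with DMSO. It had 4, 1 and 1 counts with compound 1. It had 8, 14 and 13 counts with SCH772984. The SCH772984 counts were the highest, in CPM 0.665 to 1.18, and overlapped the DMSO range of 0.109 to 0.773. FOXP1 did not pass the filter on low counts in any comparison, so it has no test.

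Of the 8 members other than FOXD1, 7 were tested against DMSO. With SCH772984 5 rose, where 37.2% of all genes tested did, 1 fell, where 35.5% of all genes did, and 1 did not pass. With compound 1 0 of 7 passed in edgeR and 0 in DESeq2, where 0.49% of all genes were called higher and 0.374% lower. At an unadjusted p under 0.05 FOXO3, FOXK1 and FOXK2 were lower with compound 1, as were 7.69% of all genes. Both comparisons share their DMSO libraries, and the members were proposed with results of these data known, so the counts describe these genes. The median SE over all genes was 0.115 with SCH772984 and 0.119 with compound 1.

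By ranges alone, all SCH772984 libraries lay above all DMSO libraries for 5 of the 9 members, as for 38% of all genes, and below for 3, as for 36.3%. All compound 1 libraries lay below DMSO for 5 members, FOXO3, FOXD1, FOXC1, FOXK1 and FOXK2, as for 10.6% of all genes, and above for 0, as for 10.3%. FOXD1 is in these counts by its choice.

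**Figure D2:**
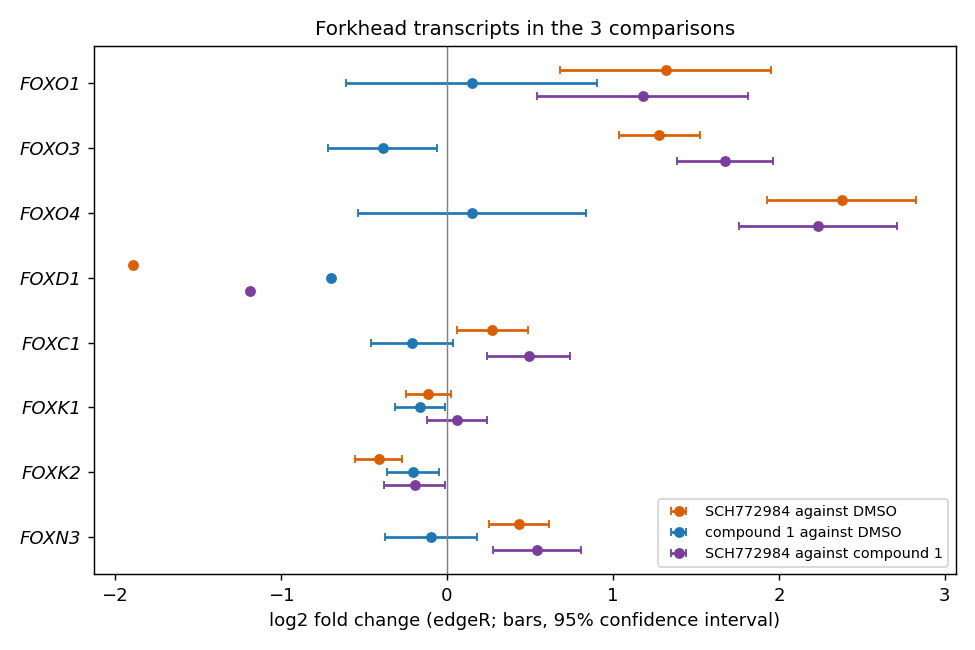
Log2 fold change (horizontal axis) of the 8 members that passed the filter on low counts, for SCH772984 against DMSO, compound 1 against DMSO and SCH772984 against compound 1. Points are edgeR estimates from 3 libraries per condition and bars are 95% confidence intervals, not drawn for FOXD1, which has no test. FOXO4 reaches 2.38 with SCH772984, and for FOXO3, FOXC1 and FOXN3 the estimates with the inhibitors lie on opposite sides of 0.

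SCH772984 was also compared directly with compound 1. Of 7 members tested, FOXD1 left out, 5 were higher with SCH772984, where 33.7% of all genes were, and 0 were lower in edgeR and in DESeq2, where 32.6% of all genes were. At an unadjusted p under 0.05 there was 1 lower, FOXK2. FOXO4 was higher by 2.24 on the log2 scale (adjusted p = 2.95e-08, edgeR), FOXO3 by 1.68 (1.27e-09) and FOXO1 by 1.18 (0.00195). FOXN3 was higher by 0.54 (adjusted p = 0.000874) and FOXC1 by 0.49 (adjusted p = 0.00119). The FOXC1 call held here under all 13 alternatives run.

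Per kilobase of exon, the order of the members changed with SCH772984 and not with compound 1. In DMSO it was FOXD1 with 29.9 CPM per kilobase, FOXK2 with 14.6, FOXK1 with 8.66, FOXC1 with 5.68, FOXN3 with 2.81, FOXO3 with 1.72, FOXO4 with 0.552, FOXO1 with 0.223 and FOXP1 with 0.0117. No neighbours overlapped. The order with compound 1 was the same, with FOXD1 at 18.4 CPM per kilobase and FOXK2 at 12.7. With SCH772984 FOXK2 came first at 11.1 CPM per kilobase. FOXD1 at 8.10 and FOXK1 at 8.04 followed and overlapped between libraries. FOXO3 moved up to 4.19 CPM per kilobase and overlapped FOXN3 at 3.81, and FOXO4 reached 2.89.

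Other forkhead genes were listed for comparison. Of 40 further family members, 31 had a count and 13 were tested with SCH772984, where 3 rose and 6 fell, beside 37.2% and 35.5% of all genes, with a median of -0.20 on the log2 scale against 0.028 over all genes. With scaling by library size alone 6 rose and 5 fell. The median of all genes moved up by 0.17 with that scaling, and the shares of all genes called with it are not given. FOXM1, the mitotic forkhead factor, averaged 229 ± 1.95 CPM (SD, n = 3) in DMSO libraries, 70.4 ± 3.77 in SCH772984 libraries and 197 ± 7.24 in compound 1 libraries. It fell with SCH772984 by 1.71 on the log2 scale (edgeR adjusted p = 4.09e-26), and with compound 1 it was at -0.21 (adjusted p = 0.130), which passed without compound 1 replicate 1 (-0.23, adjusted p = 0.00465). FOXD2, the nearest listed relative of FOXD1, fell by 1.75 with SCH772984, from 16.9 to 5.00 CPM (adjusted p = 7.8e-13), and was at -0.45 with compound 1 (adjusted p = 0.137). FOXP4 fell by 1.00 (adjusted p = 4.33e-15) and FOXN2 by 0.91 (adjusted p = 1.12e-11) with SCH772984.

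FOXO6, named here after its values were seen because it is the remaining FOXO gene, had 2.15, 1.66 and 1.86 CPM with DMSO. It had 1.51, 2.09 and 2.18 CPM with compound 1. It had 6.40, 7.01 and 8.73 CPM with SCH772984, apart from all other libraries. It rose with SCH772984 by 1.96 ± 0.24 on the log2 scale (SE; edgeR adjusted p = 1.47e-09), and with compound 1 the value was 0.030 (adjusted p = 0.979). So all 4 human FOXO transcripts rose with SCH772984. With compound 1, 0 of 11 further forkhead genes passed the test in edgeR, where 0.49% of all genes were called higher and 0.374% lower. At an unadjusted p under 0.05, 0 were higher and 4 were lower, where 7.35% and 7.69% of all genes were.

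**Figure D3:**
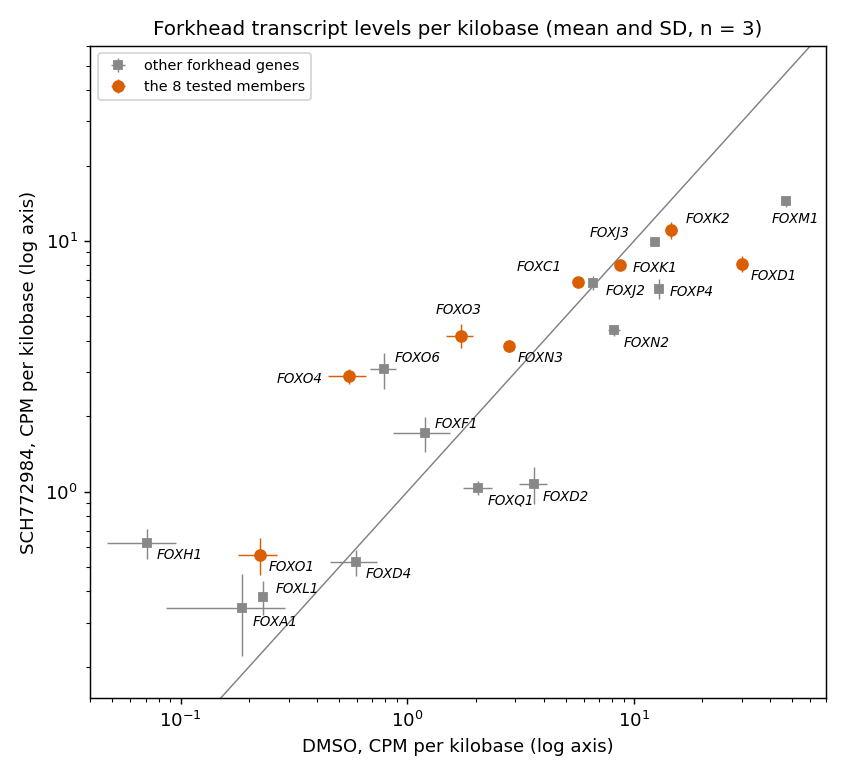
Level in SCH772984 against level in DMSO, both in CPM per kilobase on log axes, for the 8 members that passed the filter on low counts (circles) and the other tested forkhead genes (squares). Points are means of 3 libraries, bars are SDs and the line marks equal levels. FOXO1, FOXO3, FOXO4 and FOXO6 lie above the line, and FOXD1, FOXD2 and FOXM1 lie below it.

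Genes that FOXO factors are known to activate were listed by function. Of 48 listed, 44 had a count and 37 were tested with SCH772984. There 24 rose, or 64.9% of those tested, where 37.2% of all genes rose. In the other direction 7 fell, or 18.9%, where 35.5% of all genes did. A further 6 did not pass, and the median of the list was 0.57 on the log2 scale. Many of these genes have other regulators, and no test of the list was made.

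Of 8 tested cell cycle arrest genes 6 rose with SCH772984 and 1 fell, where 37.2% of all genes rose and 35.5% fell, and the other functions below stand against the same shares. CCNG2, an unconventional cyclin that blocks proliferation, had 9.23, 8.61 and 9.19 CPM with DMSO. It had 124, 120 and 104 CPM with SCH772984 and 10.0 to 12.1 CPM with compound 1. Its log2 fold change with SCH772984 was 3.67 ± 0.10 (SE; edgeR adjusted p = 8.7e-32). CITED2, a transcriptional coregulator, rose by 2.26, from 75.4 to 364 CPM (adjusted p = 1.48e-30). CDKN1B, the CDK inhibitor p27, rose by 1.05, from 74.7 to 155 CPM (adjusted p = 4.03e-18), and had 73.6 CPM with compound 1.

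Of 7 tested autophagy and proteolysis genes 6 rose with SCH772984, where 37.2% of all genes did, and 0 fell, with a median of 1.26. GABARAPL1, which coats autophagosomes, rose by 2.72, from 4.49 to 29.7 CPM (edgeR adjusted p = 3.94e-21). PINK1, the kinase that marks damaged mitochondria, rose by 2.02, from 25.2 to 103 CPM (adjusted p = 5.2e-25). Of 6 cell death genes 5 rose and 1, PMAIP1, fell by 1.75 (adjusted p = 9.25e-10). TNFSF10, the death ligand TRAIL, is named after its values were seen: it had 0 counts in each DMSO library and 25 to 42 counts in the SCH772984 libraries. Against a floor of 3 counts per DMSO library, it was at least 7.85-fold higher. With TNFSF10 at that bound the list median was again 0.57.

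Growth factor and insulin signalling genes were split, with 4 of 7 higher and 1 lower. The lower one was EIF4EBP1, the repressor of cap-dependent translation, which fell by 1.90, from 110 to 29.6 CPM (edgeR adjusted p = 5.52e-23). PIK3IP1, an inhibitor of PI3K, is named after its values were seen. It had 2, 0 and 3 counts with DMSO and 1 to 3 with compound 1. It had 108, 93 and 130 counts with SCH772984, and rose by 5.48 ± 0.39 on the log2 scale (SE; adjusted p = 7.13e-17). The size of this rise is uncertain, because no DMSO library had over 3 counts. Over 12 alternatives it ran from 4.93 to 6.16. Of 7 stress genes 3 rose and 2 fell. KLF2, a vascular and lymphoid factor, fell by 2.68 (adjusted p = 2.11e-27), and PDK4, a brake on glucose oxidation, fell by 0.97 (adjusted p = 6.01e-11). These were the tested genes of the lymphoid and vascular and of the metabolism groups.

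FOXO factors are also known to repress the D cyclins. CCND1 fell by 0.70 on the log2 scale with SCH772984, from 194 to 120 CPM (edgeR adjusted p = 7.1e-13), and had 182 CPM with compound 1. CCND2, named after its values were seen, had 0 counts in each DMSO library. The compound 1 libraries had 3 to 7 counts and the SCH772984 libraries 11 to 17. CCND2 rose with SCH772984 (edgeR adjusted p = 1.21e-06), at least 3.52-fold against the same floor, opposite to CCND1.

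With compound 1, 0 of 34 tested FOXO-activated genes passed the test in edgeR, where 0.49% of all genes were called higher and 0.374% lower, and the median was -0.015. At an unadjusted p under 0.05 CDKN1A was higher (0.81), as were 7.35% of all genes, and IRS2 (-0.50) and TXNIP (-0.30) were lower, as were 7.69%. Of 13 alternatives, IRS2 passed in 2, among them no filter on low counts (adjusted p = 0.0452). TXNIP passed in 3, among them no filter (0.0406) and without compound 1 replicate 1 (0.00247). These 3 were named after their values were seen.

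**Figure D4:**
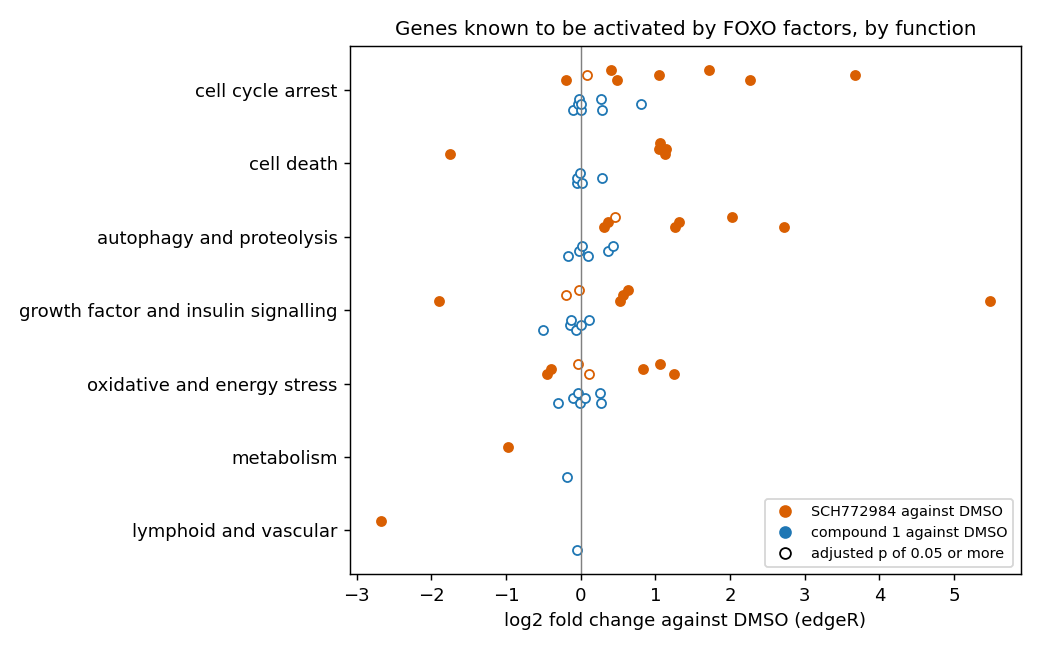
Log2 fold change against DMSO (horizontal axis) of the tested FOXO-activated genes by function, with SCH772984 (orange) and compound 1 (blue). Filled points passed an adjusted p under 0.05 in edgeR, and TNFSF10, with 0 counts in DMSO, is not drawn. All compound 1 points are open, and most autophagy, cell death and arrest genes lie above 0 with SCH772984.

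The regulators of FOXO proteins were listed as well, because they act on the proteins. Of 49 regulators 47 were tested with SCH772984, where 10 rose, beside 37.2% of all genes, and 24 fell, beside 35.5%, with a median of -0.33. With scaling by library size alone 16 rose and 23 fell. That scaling moved the median of all genes up by 0.17, and the shares of all genes called with it are not given. The smaller groups of regulators below, with TMM scaling, stand against the 37.2% and 35.5%. Of 12 PI3K and AKT-type kinases 4 rose and 4 fell. AKT1, the main kinase that restrains FOXO proteins, had 275, 280 and 277 CPM with DMSO and 133, 126 and 131 CPM with SCH772984. It fell by 1.10 on the log2 scale (edgeR adjusted p = 2.88e-20), and had 268 CPM with compound 1. AKT2 fell by 0.35 (adjusted p = 4.67e-06), or by 0.17 with scaling by library size alone (adjusted p = 0.0121). The regulatory subunit gene PIK3R3 rose by 2.11, from 32.2 to 140 CPM (adjusted p = 1.14e-26), and the catalytic PIK3CD rose by 1.07 (adjusted p = 1.38e-10).

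Of 8 genes for 14-3-3 proteins and nuclear export 7 fell with SCH772984, where 35.5% of all genes did. The exception was SFN, the epithelial 14-3-3 sigma, which rose by 4.05, from 1.14 to 19.2 CPM (edgeR adjusted p = 3.77e-21). Of 12 other kinases 8 fell, among them CDK1 by 1.76 (adjusted p = 1.49e-24), CDK2 by 1.5 (adjusted p = 2.79e-18) and STK4, the MST1 kinase, by 1.07 (adjusted p = 1.45e-15). Of 9 genes for acetylation, methylation and ubiquitin enzymes 1 rose and 3 fell.

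The targets of the inhibitors are themselves FOXO kinases. MAPK3 (ERK1) rose by 0.67 with SCH772984 (edgeR adjusted p = 2.02e-09). The IKBKE transcript, which encodes IKKε, rose by 1.71, from 1.69 to 5.55 CPM (adjusted p = 2.58e-07), and was at 0.60 with compound 1 (adjusted p = 0.414). The paper reports the opposite for the protein, a loss of IKKε in these cells with the same inhibitor, dose and time. Its quantitative PCR gave an IKBKE rise that was not significant in these cells. TBK1 was at -0.15 with SCH772984 (adjusted p = 0.147), at 0.026 with scaling by library size alone, and at 0.11 with compound 1 (adjusted p = 0.636). For TBK1 the quantitative PCR of the paper gave a significant loss of transcript with SCH772984. With compound 1, 0 of 46 regulators passed in edgeR, where 0.49% of all genes were called higher and 0.374% lower. At an unadjusted p under 0.05, 2 were higher and 4 lower, where 7.35% and 7.69% of all genes were.

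Partners of FOXK1 and FOXK2 were called in both directions with SCH772984, 5 of 13 higher and 7 lower, and of all genes 37.2% were higher and 35.5% lower. HCFC1, a chromatin cofactor bound by the BAP1 complex, was called with compound 1, the only one of the listed partners, regulators, targets and other forkhead genes to be so, where 0.49% of all genes were called higher and 0.374% lower. It had 273, 283 and 294 CPM with DMSO. It had 214, 233 and 233 CPM with compound 1 and 144, 135 and 144 CPM with SCH772984. The conditions did not overlap. HCFC1 fell by 0.32 with compound 1 (edgeR adjusted p = 0.0453) and by 1.01 with SCH772984 (adjusted p = 7.73e-19). The value with compound 1 ran from -0.35 to -0.27 over 13 alternatives and passed in 7 of them. It was not called without compound 1 replicate 2 (adjusted p = 0.0540), without compound 1 replicate 3 (0.113), without DMSO replicate 1 (0.196), replicate 2 (0.284) or replicate 3 (0.206), or with scaling by library size alone (0.0672).

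Genes of the BAP1 complex and of other partners changed in both directions with SCH772984. ASXL1 rose by 0.97, from 147 to 289 CPM (edgeR adjusted p = 3.03e-18), while ASXL2 fell by 0.42 (adjusted p = 2.58e-06) and BAP1 by 0.45 (adjusted p = 1.25e-07). Among dishevelled genes DVL2 rose by 0.91 (adjusted p = 1.43e-14) and DVL1 fell by 0.63 (adjusted p = 2.13e-11). SUDS3, a subunit of the SIN3 complex, rose by 0.38 (adjusted p = 0.000928) and SIN3B by 0.26 (adjusted p = 0.00112), while SIN3A fell by 0.32 (adjusted p = 0.000191) and the deacetylase gene HDAC2 by 0.42 (adjusted p = 2.61e-07). With scaling by library size alone the SIN3A call was lost (-0.15, adjusted p = 0.0689), SIN3B was at 0.43, and ASXL2 (-0.25), BAP1 (-0.27) and HDAC2 (-0.24) fell less. Without DMSO replicate 3 SUDS3 was at 0.24. SIN3A and HDAC2 were named after their values were seen.

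Likeness of pattern was measured by Pearson's r of log2 levels over the 9 libraries, among 10476 genes for FOXD1 and FOXO3 and 10477 for FOXO1 and FOXO4. The genes most like FOXO4 were RETREG1, a receptor for autophagy of the endoplasmic reticulum (r = 0.997), ATP6V1A, a subunit of the proton pump of lysosomes (0.996), and ASAP3 (0.993). Those most like FOXO3 were MYPN (0.994), NCOA1, a nuclear receptor coactivator (0.993), and ACO1, the cytosolic aconitase (0.993). FOXO1 was most like FAM114A1 (0.977), TTC39A (0.973) and ZNF786 (0.969). FOXD1 was most like PALD1 (0.994), SMARCD1, a SWI/SNF subunit (0.990), and CAD, the first enzyme of pyrimidine synthesis (0.989). The 9 libraries share 3 conditions, so these values are a description.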

How the data were processed

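The authors deposited 1 table of read counts per gene for 9 libraries, not normalized. The submitters' processing notes name HISAT2 2.0.5, featureCounts 1.5.0-p3 and hg38. The strand and multimapping settings are not given in the sources used here. Gene names and identifiers matched GENCODE release 29, which also gave exon lengths and coding sequences. Promoters came from RefSeq on GRCh38.p14.

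Libraries were grouped by their labels, 3 per condition. Each pair of conditions was fitted alone with edgeR 4.0.16 in R 4.3.3 (robust quasi-likelihood test, TMM, filterByExpr with a minimum count of 10 and a minimum total of 15), and p-values were adjusted by Benjamini-Hochberg over all genes tested, 13834 for SCH772984 against DMSO, 12849 for compound 1 against DMSO and 13863 for SCH772984 against compound 1. A gene was called at an adjusted p under 0.05. The fits were tested on simulated data in which few genes changed, as many up as down. For SCH772984 against DMSO 90.6% of the changed genes were called, and 0.143% of the others. This run cannot test the scaling in the real data, where far more genes were called with SCH772984.

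The members and lists were chosen with earlier results of these data known. Named genes were all members, up to 4 per list and direction with the largest change with SCH772984 among called genes with at least 5 CPM and no overlap of libraries, list genes called with compound 1, fixed regulators and targets (IKBKE, TBK1, MAPK3, AKT1, AKT2, CDKN1B, FOXM1, CCND1, DUSP6), and the 3 genes most like each of FOXD1, FOXO1, FOXO3 and FOXO4. Some genes and sequences that this rule or the searches took in are not reported here.

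The alternatives were other scalings and filters, all libraries in one fit, a replicate block, an unadjusted p, DESeq2 1.42.0 and leaving out each library.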

Additional observations from a re-analysis of the deposited data

How the results depend on the processing

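Of 273 recomputed fold changes of the members other than FOXD1, 261 kept their direction and side of the threshold. Of 39 for FOXD1, which has no test, 37 moved by less than their SE. Of 252 recomputed counts of called genes, 234 stayed within 1.5 times. Of 27 mean levels of the members, 7 moved by more than their SD with scaling by library size alone, all 3 of FOXK1 and those of FOXN3, FOXC1 and FOXO4 in some conditions. Scaling by library size alone moved the median of all genes by 0.17 on the log2 scale with SCH772984 against DMSO, raised the other forkhead genes called higher from 3 to 6 and the FOXO regulators from 10 to 16, and turned FOXK1 to 0.063, TBK1 to 0.026 and FOXO3B to 0.066, and moved FOXD1 to -1.71, and to -1.05 between the inhibitors. With compound 1, 2 FOXO-activated genes were called lower with no filter. At an unadjusted p under 0.05, compound 1 gave 3 members and 4 other forkhead genes lower, 1 FOXO-activated gene higher and 2 lower, and 2 regulators higher and 4 lower. All 9 libraries in one fit, or an unadjusted p, gave 1 member lower with SCH772984 than with compound 1.

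Leaving out libraries moved the counts with compound 1 from 0 to 2 for other forkhead genes lower, from 0 to 1 for FOXO-activated genes lower, from 0 to 2 for regulators higher and from 0 to 1 for regulators lower, the higher value in each case without compound 1 replicate 1. For members lower between the inhibitors the range was 0 to 1, the higher value without compound 1 replicate 1 or SCH772984 replicate 1. The fold changes with compound 1 ran from -0.23 to 0.048 for FOXN3, the highest without compound 1 replicate 1, from -0.072 to 0.28 for FOXO1 and from -0.12 to 0.31 for FOXO4, the lowest of both without compound 1 replicate 3. The cause of these shifts was not tested. The same alternatives were run for the listed genes named, a step chosen after seeing the data, and 665 of 683 fold changes kept their direction and side of the threshold.

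Correlations of same-numbered libraries of different conditions ran from -0.079 to 0.107, and those of differently numbered libraries from -0.101 to 0.149. They were taken on deviations from means of 3 libraries, so they cannot show whether the libraries were paired. The replicate block gave 2 FOXO-activated genes lower with compound 1, IRS2 (adjusted p = 0.0486) and TXNIP (0.0430), and changed no other count or call.

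Counts of 10 to 27 for FOXO1 and FOXO4 with DMSO and compound 1, and of under 15 for FOXP1, limit what can be detected for these genes.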
